A study of Mus musculus with 24 samples.

Results

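Gene expression was compared between lungs of wild-type CD-1 mice given particulate matter (PM) and lungs of wild-type CD-1 mice given PBS, the saline vehicle. Both groups were chosen by sample title, 3 arrays each, so that 6 of the 24 arrays of the study carry the comparison. The PM mice received 20 mg/kg of particles of 1.9 µm and their tissue was taken at 36 h; no harvest time is given in the labels for the PBS mice. All animals are labelled male and 20 weeks old, and the design text gives 3 animals a group, so the p-values measure the spread between those animals. A further 6 lung arrays came from mice with dominant negative CREB1 (dnCREB), a version that blocks this transcription factor, made from a myosin heavy chain-alpha promoter active in cardiomyocytes, 3 given PM and 3 given PBS; they share the estimate of spread and give another PM comparison. The other 12 arrays are of heart and were used only in choosing 1 probe set per gene. Of 18193 genes on the array, 11600 had a log2 value above 4 in at least 3 of the 12 lung arrays and were tested.

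Particles that settle in the airspaces are taken up by alveolar macrophages, which carry scavenger receptors such as Marco and can release chemokines that draw in neutrophils, monocytes and lymphocytes. Interferons signal through STAT and IRF transcription factors to genes such as Ifit1, the guanylate-binding proteins and the immunity-related GTPases. Particles that carry organic compounds or metals are also known to act on the aryl hydrocarbon receptor (AhR), which controls Cyp1a1, and on NRF2, which controls antioxidant genes such as Hmox1. A lung sample is a mixture of cells, and in it more cells of a type and more RNA of a gene per cell cannot be told apart.

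Some arrays stood apart from the rest of their group. PM replicates 1 and 2 carried high levels of genes of skeletal muscle and of squamous epithelium, while the lung chemokine Cxcl15 was at 13.92 to 14.79 in all 6 wild-type arrays. The mean log2 level of the 34 skeletal muscle genes tested, of 41 on the array, was 8.38, 8.16 and 5.29 in PM replicates 1, 2 and 3, against 5.18, 4.92 and 4.83 in PBS replicates 1, 2 and 3; triplets of values below keep this replicate order. For 10 squamous and basal epithelial genes it was 8.30, 9.22 and 3.89 in PM lungs, against 4.12, 3.74 and 3.70 in PBS lungs. Sex-linked genes also went against the labels and moved with the exposure. Xist, the RNA that coats the inactive X chromosome of females, was at 12.37, 2.89 and 12.30 in PM lungs, against 2.72, 2.64 and 2.15 in PBS lungs. The Y-linked gene Eif2s3y was at 3.17, 8.43 and 3.28 in PM lungs, against 10.19, 9.24 and 9.58 in PBS lungs. PM replicates 1 and 3 thus had the expression of females, although labelled male, and sex-chromosome expression and exposure can be told apart only through PM replicate 2. Over the genes tested, PBS replicate 1 and PM replicate 2 had the lowest median correlation with the other lung arrays, 0.924 and 0.929, where the other 10 lung arrays lay at 0.958 to 0.969.

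With limma's moderated test over all 12 lung arrays and Benjamini-Hochberg adjustment, 277 genes (2.39% of those tested) passed an adjusted p of 0.05. Of these, 227 (1.96%) were higher and 50 (0.431%) lower in PM lungs, and 189 of the rises and 35 of the falls were at least 2-fold. The 3 PM arrays lay wholly above the 3 PBS arrays for 2018 genes (17.4%) and wholly below for 1054 (9.09%). The direction of the count depends on scaling: 116 rises and 76 falls passed after quantile normalization, and 129 rises and 172 falls after each array was centred on its median. The median difference over all genes tested was 0.11 on the log2 scale as deposited, -0.02 after quantile normalization and -0.11 after centring, and medians of gene lists are given below relative to that of all genes. All 45 genes checked under both (the largest rises and falls, the largest called with the skeletal muscle level as a covariate, and the named muscle and sex-linked genes) kept their direction. With only the 6 wild-type arrays in the fit 24 genes passed, 21 of them among the 277, and with no filter on low values 85 passed, 77 of them among the 277. Single arrays also moved the count: 625 genes passed without PM replicate 1, 50 without PM replicate 2, 152 without PBS replicate 1 and 38 without PBS replicate 2. Without PBS replicate 1 and PM replicate 2 together, 43 genes passed.

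Of the gene lists examined, that of genes induced by interferon had the most calls in the values as deposited. The lists were chosen with earlier results of these data known, so their counts beside the background describe the members and do not test them. Of 22 interferon genes tested, 8 rose (background 1.96%) and none fell, 16 lay wholly above PBS (background 17.4%), and all 22 differences were positive. The list median was 1.26 above that of all genes. The number of list members that passed was 3 after centring, where the T and NK cell list had 5, and 4 after quantile normalization, where the macrophage list also had 4. It was 11 with the Xist level as a covariate (background 3.47%). Irf7, the transcription factor that amplifies type I interferon production, was at 7.48, 8.56 and 8.0 in PM lungs, against 5.57, 5.32 and 5.58 in PBS lungs, a difference of 2.53 ± 0.43 (log2, SE, n = 3 each; limma adjusted p = 0.0209). Its groups did not overlap, and the PBS arrays lay close together. Ifit1, which binds foreign RNA that lacks a host cap, was at 8.28, 9.44 and 9.50 in PM lungs, against 7.35, 7.02 and 6.64 in PBS lungs, 2.07 ± 0.47 higher (adjusted p = 0.0474). Of the immunity-related GTPases, which act on vacuoles that hold pathogens, Igtp rose by 1.71 ± 0.30 (adjusted p = 0.0216), Irgm1 by 1.36 ± 0.23 (0.0208) and Iigp1 by 1.82 ± 0.37 (0.0341). The guanylate-binding proteins Gbp3 and Gbp2 rose by 1.39 and 0.79, and Oasl2, of the oligoadenylate synthetase family, by 2.15. PM replicate 1, with the highest skeletal muscle level of the wild-type arrays (8.38), gave the lowest PM value for Irf7, Ifit1, Igtp, Irgm1 and Gbp3. PM replicate 2, with a muscle level of 8.16, gave the highest PM value for Irf7, Igtp and Irgm1, and PM replicate 3 for Ifit1 and Gbp3. Usp18 (1.76, adjusted p = 0.0516), Oas1a (2.15, 0.0567) and Zbp1 (2.01, 0.0588) missed the threshold, whereas Mx1 (0.10), Stat2 (0.02) and Ifih1 (0.21) had differences near 0. In PM replicate 3 alone, the PM array lowest in muscle and squamous genes, the list median was 1.25 above that of all genes, and with the muscle level as a covariate it was 1.26, although none of the genes then passed the test.

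Promoters of genes from this list are shown because 8 of its 22 tested members were called higher. Interferon-activated factors are known to bind a repeated GAAA element. Promoter windows of 300 bases (250 before and 50 after the annotated start) came from RefSeq on mouse build GRCm38.p6, and matches to GAAA, any 2 bases and GAAA again, on either strand, are in capitals. The window of Ifit1 is chr19:34640639-34640938 on the plus strand, that of Gbp3 is chr3:142559794-142560093 on the plus strand (1 of 2 listed for this gene, the other without a match), that of Igtp is chr11:58199306-58199605 on the plus strand and that of Irgm1 is chr11:48871371-48871670 on the minus strand, each written 5′ to 3′ along its gene.
Ifit1: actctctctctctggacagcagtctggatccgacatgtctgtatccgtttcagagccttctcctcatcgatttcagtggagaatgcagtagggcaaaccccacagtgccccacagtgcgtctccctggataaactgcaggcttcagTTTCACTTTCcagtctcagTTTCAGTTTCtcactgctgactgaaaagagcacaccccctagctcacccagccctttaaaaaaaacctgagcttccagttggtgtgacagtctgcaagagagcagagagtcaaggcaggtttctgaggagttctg
Gbp3: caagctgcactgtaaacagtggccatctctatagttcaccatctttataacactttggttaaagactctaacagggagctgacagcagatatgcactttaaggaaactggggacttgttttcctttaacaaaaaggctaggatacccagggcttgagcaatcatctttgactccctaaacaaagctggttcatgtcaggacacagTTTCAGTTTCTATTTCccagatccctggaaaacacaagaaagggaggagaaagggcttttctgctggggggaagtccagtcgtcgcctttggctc
Igtp: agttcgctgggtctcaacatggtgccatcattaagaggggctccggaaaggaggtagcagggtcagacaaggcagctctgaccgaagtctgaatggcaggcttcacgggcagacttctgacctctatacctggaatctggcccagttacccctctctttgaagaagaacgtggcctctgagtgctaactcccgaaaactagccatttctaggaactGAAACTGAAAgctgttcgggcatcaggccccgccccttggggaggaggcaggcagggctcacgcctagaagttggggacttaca
Irgm1: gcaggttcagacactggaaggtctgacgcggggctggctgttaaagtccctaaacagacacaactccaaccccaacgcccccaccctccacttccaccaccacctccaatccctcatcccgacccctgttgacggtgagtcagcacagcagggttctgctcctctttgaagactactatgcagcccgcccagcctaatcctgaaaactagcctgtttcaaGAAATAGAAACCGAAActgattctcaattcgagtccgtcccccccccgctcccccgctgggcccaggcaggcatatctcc
Ifit1 holds 2 separate matches, which begin 104 and 85 bases before the start, written in the letters of the opposite strand. In Gbp3 and Irgm1 the 2 matches overlap, beginning 45 and 39 bases before the start in Gbp3 and 30 and 24 bases before it in Irgm1, and Igtp has 1 match 34 bases before the start. Of the 7 called interferon genes whose promoter was looked up, 5 held the motif (71.4%), Gbp2 being the fifth, and the windows of Irf7 and Oasl2 did not. Of 16 tested interferon genes looked up, 11 held it (68.8%), against 3.75% of 9398 tested genes and 3.99% of all 27025 genes with a window. The STAT-type motif TTCNNNGAA, which reads the same on both strands, was in 4 of the 16 (25%) and in 8.19% of the tested genes; Igtp had both. The list was made of genes known to be induced by interferon, so a share above that of all genes follows from this choice and does not bear on PM. The share was also about the same in called (71.4%) and in all tested members (68.8%). A match is a description of the letters and does not show binding.

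**Figure D1:**
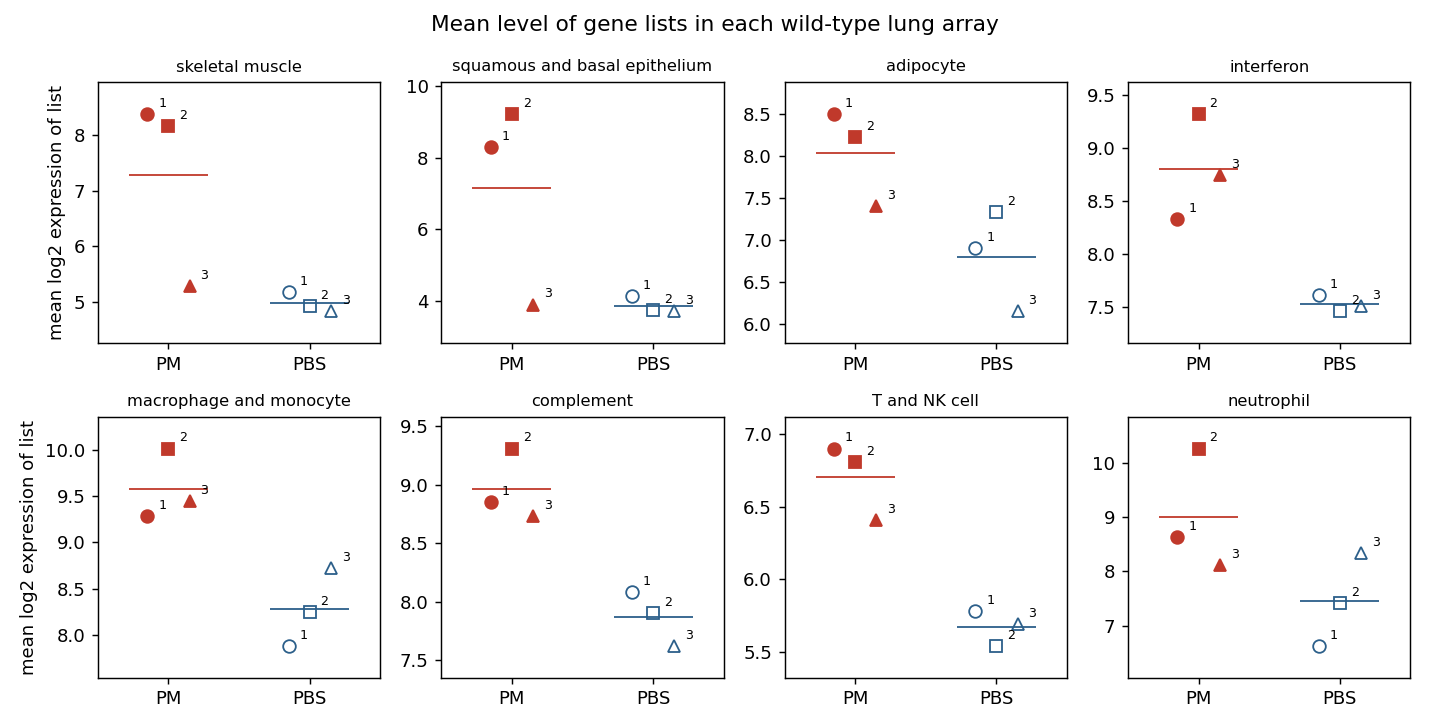
Mean log2 expression of the tested members of 8 gene lists in each wild-type lung array, PM left and PBS right of each panel; numbers are replicates and lines are group means. Skeletal muscle and squamous genes were high in PM replicates 1 and 2 (8.16 to 9.22) and not in PM replicate 3 (5.29 and 3.89), whereas interferon, macrophage, complement and T and NK cell genes lay higher in all 3 PM arrays than in any PBS array.

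Macrophage and monocyte genes were higher in PM lungs. Of 26 tested, 4 rose (background 1.96%) and none fell, 16 lay wholly above PBS (background 17.4%), and the list median was 1.12 above that of all genes (0.82 in PM replicate 3 alone, 1.01 with the muscle covariate). Fcgr1, the high-affinity receptor for IgG, was at 7.97, 9.43 and 7.51 in PM lungs, against 4.58, 4.90 and 5.59 in PBS lungs, 3.28 ± 0.49 higher (adjusted p = 0.015). Marco, the scavenger receptor of alveolar macrophages that binds inhaled particles, was at 6.48, 5.76 and 5.71 in PM lungs, against 3.26, 3.2 and 3.21 in PBS lungs (adjusted p = 0.0225). Its PBS arrays all lay below the level of 4 used in the filter, so it was at least 3.95-fold higher, measured from that level; bounds below are set the same way. The fractalkine receptor Cx3cr1 rose by 1.77 ± 0.32 (adjusted p = 0.0234) and Mpeg1, which encodes the pore-forming perforin-2 of macrophages, by 1.04 ± 0.22 (0.0369). Ctss, a lysosomal protease, and Adgre1, the F4/80 antigen, had differences of 1.46 and 1.10 with adjusted p of 0.0508 and 0.0515. Macrophages are also known to make Mmp12 and Apoc2. Mmp12, the macrophage elastase, was at 6.93, 6.92 and 7.77 in PM lungs, against 3.89, 3.67 and 4.85 in PBS lungs (3.07 ± 0.69 higher, adjusted p = 0.046). Apoc2, the cofactor of lipoprotein lipase, was at 4.89, 6.71 and 4.90 in PM lungs, against 2.85, 2.84 and 3.05 in PBS lungs, at least 2.83-fold higher (adjusted p = 0.0324). The groups did not overlap for either gene.

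Complement genes followed, with 4 of 12 tested higher (background 1.96%), none lower and a list median 1.26 above that of all genes. C1q starts the classical pathway when it meets antibody or damaged cells, and its chains C1qb and C1qc rose by 2.38 ± 0.38 (adjusted p = 0.0199) and 2.65 ± 0.47 (0.0225). C1qb was at 10.84, 11.15 and 10.94 in PM lungs, against 9.06, 8.69 and 8.04 in PBS lungs. The third chain, C1qa, had a difference of 1.59 with adjusted p = 0.0676. C1ra, a protease of the same complex, rose by 0.97 ± 0.15 (adjusted p = 0.015), and C3ar1, the receptor for the C3a fragment, by 2.15 ± 0.47 (0.0454), while Cfb of the alternative pathway missed the threshold (1.76, adjusted p = 0.0501). The complement median was 0.85 in PM replicate 3 alone and 0.76 with the muscle covariate. Neutrophil genes were less even. Only Ncf1, a cytosolic subunit of the phagocyte oxidase, rose among 16 (background 1.96%), by 1.55 ± 0.33 (adjusted p = 0.0396). The list's mean level was 8.64, 10.27 and 8.11 in PM lungs, against 6.62, 7.41 and 8.34 in PBS lungs, so that PBS replicate 3 exceeded PM replicate 3. Ncf4, the granule genes Ngp and Ltf, Stfa2l1 and the formyl peptide receptor Fpr2 had differences of 1.82 to 3.84 with adjusted p of 0.0564 to 0.111. The neutrophil median was 1.24 over the 3 PM arrays and 0.51 in PM replicate 3.

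Genes of cytotoxic lymphocytes rose as well. Of 17 T and NK cell genes, 5 rose (background 1.96%) and none fell, and 11 lay wholly above PBS (background 17.4%); 5 passed after centring and 2 after quantile normalization, and the list median was 0.89 above that of all genes, 0.36 in PM replicate 3 alone and 0.70 with the muscle covariate. Nkg7, a protein of cytotoxic granules, was at 6.82, 7.77 and 7.0 in PM lungs, against 5.02, 5.25 and 5.06 in PBS lungs, 2.09 ± 0.24 higher (adjusted p = 0.00707). Tbx21, which encodes the transcription factor T-bet, was at 4.86, 6.55 and 5.49 in PM lungs, against 2.78, 3.24 and 3.49 in PBS lungs, at least 3.10-fold higher (adjusted p = 0.0199). The related factor Eomes was at 4.13, 4.45 and 4.50 in PM lungs, against 2.83, 2.81 and 2.81 in PBS lungs, at least 1.28-fold higher (adjusted p = 0.0195). Groups were apart for all 3. The granule effectors Gzmb and Prf1 rose by 1.54 ± 0.31 and 1.90 ± 0.39 (adjusted p = 0.0311 and 0.0331), and Gzma, at 1.44, had an adjusted p of 0.0636. Nkg7 and Eomes also passed with the muscle level as a covariate. Outside the list, Cd247, the zeta chain of the T cell receptor complex, rose by 1.72 ± 0.21 (adjusted p = 0.0078) and Ptprcap, which associates with the phosphatase CD45, by 1.62 ± 0.18 (0.00707).

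The largest rise among the called genes was in an antibody gene. Ighg3, the constant region of IgG3, was at 8.63, 10.81 and 8.58 in PM lungs, against 4.92, 4.85 and 5.42 in PBS lungs, 4.27 ± 0.81 higher (adjusted p = 0.0275). Igkv9-120, a kappa light chain variable segment, was at 6.21, 6.74 and 6.50 in PM lungs, against 3.43, 4.63 and 3.75 in PBS lungs (2.55 ± 0.57, adjusted p = 0.0457). The groups did not overlap for either gene, but immunoglobulin segments resemble each other, the probe set of Igkv9-120 is of the kind marked as able to cross-hybridise, and the other tested probe set of Ighg3 differed by only 0.19. None of the 11 B and plasma cell genes listed passed (background 2.39% in either direction). The list median was 0.96 above that of all genes, and 0.67 in PM replicate 3. Cd79a, Jchain, Ighm, Cd72, Blk and Cd79b had differences of 0.96 to 2.02 and adjusted p of 0.0578 to 0.142. Of 12 genes of dendritic cells and MHC class II, 2 rose (background 1.96%). Fscn1, the actin-bundling protein of mature dendritic cells, was at 10.45, 11.53 and 11.53 in PM lungs, against 7.88, 8.78 and 8.16 in PBS lungs, 2.90 ± 0.40 higher (adjusted p = 0.0123), and H2-DMa, which helps load peptide on class II molecules, rose by 1.24 ± 0.27 (0.041). The class II genes H2-Ab1, Cd74 and H2-Aa (0.89, 0.90 and 0.66) and the homing receptor Ccr7 (0.80) did not pass, with adjusted p of 0.0775 to 0.218.

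Among signals between cells, 1 of 14 chemokines, 1 of 18 cytokines and receptors and none of 10 acute phase genes passed (background 1.96% higher and 0.431% lower). Ccl5, which draws T cells and monocytes, was at 10.24, 10.11 and 9.39 in PM lungs, against 7.23, 8.39 and 8.06 in PBS lungs, 2.02 ± 0.32 higher (adjusted p = 0.0199). Cxcl16, Ccl9, the neutrophil chemokine Cxcl1 and Cx3cl1 had differences of 1.02 to 1.78 and the eosinophil chemokine Ccl11 of -1.57, with adjusted p of 0.0598 to 0.148. Il4ra, the receptor chain shared by interleukins 4 and 13, rose by 1.15 ± 0.26 (adjusted p = 0.0494), and Tnfrsf1b, Csf2rb, Csf1, Tnfrsf1a (0.67 to 1.75) and the epithelial cytokine Tslp (-1.06) did not pass (0.0564 to 0.17); Il4ra itself missed the threshold after centring and after quantile normalization. Saa3, an acute phase protein made in the lung, showed large values without passing: it was at 12.53, 12.35 and 11.19 in PM lungs, against 7.75, 7.38 and 7.43 in PBS lungs, 4.51 ± 1.07 apart, with an adjusted p of 0.0519. Hpx (-1.47), Itih4 (1.67), Lcn2 (1.39), Ptx3 (0.84) and Cp (0.77) had adjusted p of 0.0515 to 0.299. Of 21 genes of Toll-like receptors and NF-kappaB feedback 2 rose (background 1.96%; 0 after centring and 0 after quantile normalization by limma), Tlr2 (1.59 ± 0.34, adjusted p = 0.0415), a receptor for bacterial lipoproteins, and Nfkbib (1.26 ± 0.28, 0.0468), an inhibitor of NF-kappaB. Tlr7, Relb, Socs3 and Nfkbie followed with differences of 0.86 to 1.53 (0.061 to 0.0623). Of 11 leukocyte adhesion genes 2 rose (background 1.96%), the integrin chain Itgb7 (1.89 ± 0.37, adjusted p = 0.0289) and Selp (1.65 ± 0.37, 0.0457), the P-selectin on which leukocytes roll. Itgb2, Itgal, Selplg and Cd44 (0.48 to 1.70) had adjusted p of 0.0892 to 0.155. The medians of these lists were 1.01 (chemokines), 0.31 (cytokines and receptors), 0.68 (acute phase), 0.51 (NF-kappaB) and 0.54 (adhesion) above that of all genes.

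A few genes of matrix and of angiogenesis rose. Of 25 fibroblast and matrix genes, 3 rose (background 1.96%) and none fell, and 10 lay wholly above PBS (background 17.4%); 1 passed after centring and 0 after quantile normalization by limma, and the list median was 0.62 above that of all genes and 0.80 in PM replicate 3 alone. Tnc, the matrix glycoprotein tenascin C that appears in injured tissue, was at 7.08, 7.93 and 8.96 in PM lungs, against 4.90, 5.52 and 5.51 in PBS lungs, 2.68 ± 0.55 higher (adjusted p = 0.0335), although its other tested probe set differed by 0.68 and did not pass. Tgfbi, a matrix protein induced by TGF-beta, rose by 1.18 ± 0.27 (adjusted p = 0.0474) and Mmp12 as given above; Ccn2, Mmp14 and Col1a2 had differences of 0.82 to 1.38 (0.0606 to 0.0775). Of 16 hypoxia and angiogenesis genes, 2 rose (background 1.96%). Esm1, which encodes the endothelial proteoglycan endocan, was at 11.12, 9.75 and 11.83 in PM lungs, against 7.10, 8.56 and 7.42 in PBS lungs, 3.21 ± 0.58 higher (adjusted p = 0.0239). It missed the threshold with the Xist level (2.87, adjusted p = 0.0502) and with the Eif2s3y level (1.52, 0.204) as a covariate, as did Tnc (2.28, 0.0694, and 2.51, 0.105) and Mmp12 (3.22, 0.0603, and 2.64, 0.16). Angpt2, the ligand that loosens vessels, was at 7.19, 7.6 and 7.53 in PM lungs, against 6.06, 5.99 and 5.90 in PBS lungs, 1.46 ± 0.16 higher (adjusted p = 0.00707), and passed both with the muscle covariate and without PM replicates 1 and 2. The glucose transporter Slc2a1, Adm, Nrp2 and Pgf had differences of 0.89 to 2.73 (0.0523 to 0.149). Of 14 coagulation and fibrinolysis genes only F10, coagulation factor X, rose (background 1.96%). F10 was at 5.84, 7.63 and 6.47 in PM lungs, against 3.35, 4.04 and 4.78 in PBS lungs (2.59 ± 0.44, adjusted p = 0.0208). Procr, Plat, F7, F2r (0.64 to 1.31) and Thbd (-1.03) did not pass (0.0676 to 0.196).

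Vessel and smooth muscle markers themselves showed few changes. None of 22 endothelial genes passed (background 2.39% in either direction), and the list median was 0.06 above that of all genes. PBS replicate 1 was low in several of them, with Eng at 9.40 and Plvap at 10.25. In PBS replicates 2 and 3 Eng was at 12.01 and 11.92 and Plvap at 13.13 and 12.85. Vwf, Eng, Apln and Plvap had differences of 1.03 to 1.48, and Sox17 and Ednrb of -1.05 and -0.92, with adjusted p of 0.0854 to 0.237. Of 14 smooth muscle and pericyte genes 1 rose (background 1.96%), Lmod1, an actin filament nucleator (0.90 ± 0.19, adjusted p = 0.0425), which missed the threshold under both other scalings. Synpo2, Des, Pdgfrb, Smtn and Rgs5 had differences of 0.74 to 2.14 (0.0918 to 0.159), and Smtn was at 2.94 in PBS replicate 1 and at 6.89 to 8.04 in the other 5 wild-type arrays. The other named rises were Olfm2, a secreted olfactomedin (5.36, 5.74 and 5.20 in PM lungs, against 2.05, 3.16 and 2.04 in PBS lungs; at least 2.70-fold higher, adjusted p = 0.0117), the neuronal pentraxin Nptx1 (2.31 ± 0.38, 0.0199), the carboxypeptidase-like proteins Cpxm1 (2.25 ± 0.28, 0.0078) and Cpxm2 (at least 3.30-fold, 0.00283), Lhfpl2 (1.84 ± 0.22, 0.00707), the ubiquitin ligase family member Trim47 (1.54 ± 0.19, 0.0078) and Fam167b (at least 1.51-fold, 0.0117). All of these except Fam167b also passed with the muscle level as a covariate. Of the 12 lung arrays, only PM arrays lay above 4 for Apoc2, Tbx21, Eomes, Olfm2, Cpxm2 and Fam167b. These genes thus entered the test only through exposed arrays, where they were high. Among all genes tested, 6 passed the filter through the wild-type PM arrays alone, and 2 of those were called.

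**Figure D2:**
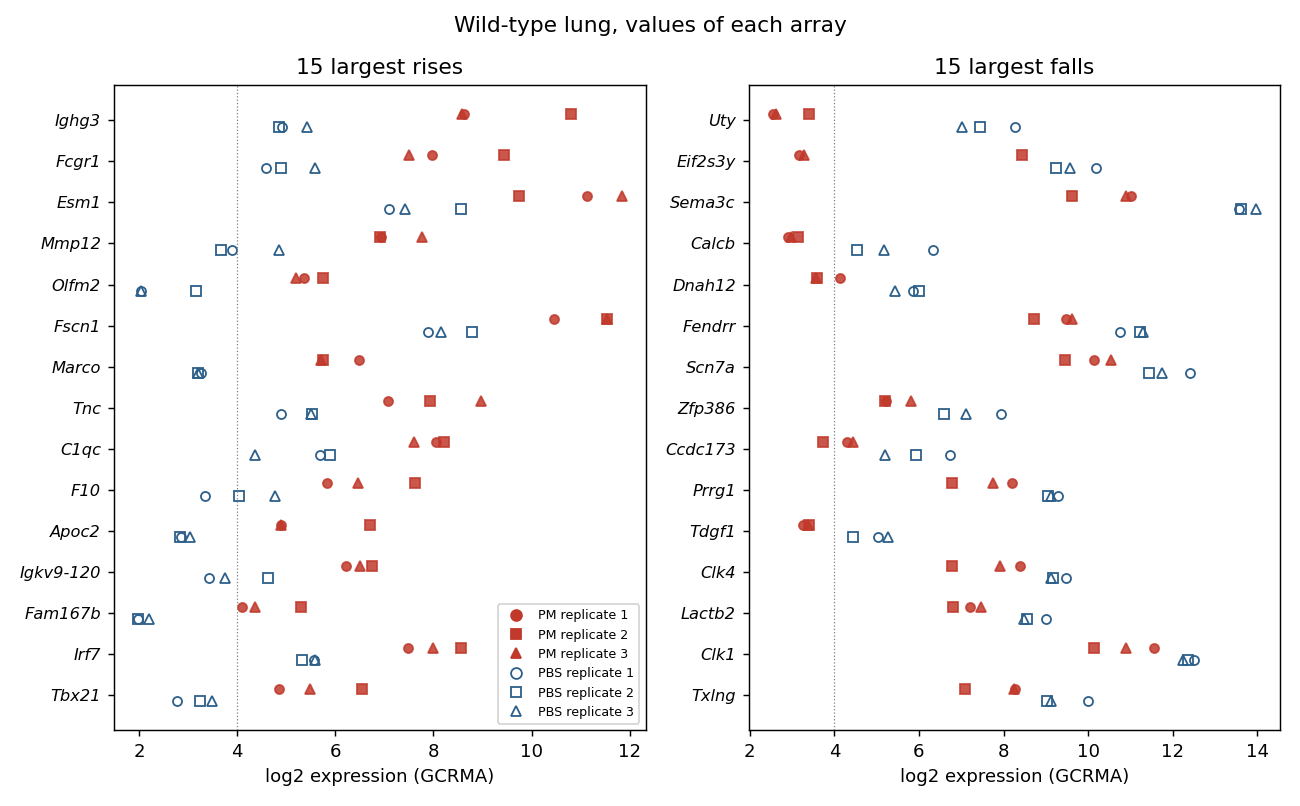
Log2 expression (as deposited, GCRMA) of the 15 named genes with the largest rises and the 15 with the largest falls in each wild-type lung array; filled red symbols are PM, open blue symbols are PBS, symbol shape is the replicate, and the dotted line is the filter level of 4. PM and PBS arrays do not overlap for any of the 30, which the naming rule required, and PBS arrays of Marco, Apoc2, Olfm2, Fam167b and Tbx21 lie below 4.

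Fewer genes fell, and the named falls belong to several families. Sema3c, a secreted semaphorin that guides vessels and airways in development, was at 11.01, 9.61 and 10.90 in PM lungs, against 13.56, 13.61 and 13.98 in PBS lungs, 3.21 lower on the log2 scale (SE 0.45, adjusted p = 0.0123). Calcb, the neuropeptide beta-CGRP, was at 2.91, 3.15 and 2.97 in PM lungs, against 6.33, 4.53 and 5.18 in PBS lungs, at least 2.54-fold lower (adjusted p = 0.0147). Fendrr, a long noncoding RNA that neighbours Foxf1 and is known from lung mesenchyme, was at 9.48, 8.71 and 9.62 in PM lungs, against 10.75, 11.24 and 11.31 in PBS lungs (-1.83 ± 0.27, adjusted p = 0.015). Scn7a, a sodium channel family member, changed by -1.82 ± 0.38 (adjusted p = 0.0369) and did so on all 3 of its tested probe sets. The kinases Clk1 (-1.52 ± 0.28, adjusted p = 0.0253) and Clk4 (-1.57 ± 0.34, 0.0418), which phosphorylate splicing factors, fell together. Dnah12, an axonemal dynein heavy chain (-2.0, adjusted p = 0.0399), the zinc finger protein Zfp386 (-1.82, 0.0457), Ccdc173 (-1.80, 0.0253), the nodal co-receptor Tdgf1 (at least 1.88-fold lower, 0.0078) and the mitochondrial ribonuclease Lactb2 (-1.53, 0.015) also fell, as did the X-linked Prrg1 (-1.57, 0.0275) and Txlng (-1.51, 0.0476). Of these, Tdgf1 also passed with the muscle covariate. Of the 12 lung arrays, only the 3 wild-type PBS arrays lay above 4 for Calcb and for Tdgf1. Calcb and Tdgf1 thus entered the test only through the group where they were high. The number of falls depended on scaling, with 50 as deposited, 76 after quantile normalization and 172 after centring.

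Pathways often measured after particle exposure gave no call. With 2.39% of all genes called in either direction, lists of this size can readily give none. None of 16 AhR and xenobiotic genes passed, and their list median was -0.31 relative to all genes; Cyp1a1 itself was at 6.79, 7.56 and 7.35 in PM lungs, against 5.46, 6.68 and 5.38 in PBS lungs, 1.39 ± 0.53 apart (adjusted p = 0.136). Its groups did not overlap, but PBS replicate 2 lay close to the lowest PM array. Gsta3, Gstm1, Ephx1 and Tiparp had differences of -1.21 to -0.47 and Cyp2e1 of 2.16 (0.117 to 0.233). None of 23 NRF2, antioxidant and metal genes passed (list median -0.12). Hmox1, haem oxygenase 1, was at 7.62, 7.63 and 7.70 in PM lungs, against 6.14, 6.54 and 6.54 in PBS lungs, 1.24 ± 0.38 apart (adjusted p = 0.0896), and Keap1, Mt1, Mt2, Nfe2l2 and Slc30a1 lay between -0.74 and 1.38 (0.108 to 0.176). The missed thresholds do not show that these genes were unaffected.

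The lists of lung epithelial and mesothelial cells had no calls (background 2.39% in either direction), with medians from -0.40 to 0.08 relative to all genes. The 15 genes of alveolar type II cells had a median of 0.08, with Muc1, Egfl6, Lpcat1 and Napsa at 0.39 to 1.05 and Nkx2-1 and Cxcl15 at -0.64 and -0.44 (adjusted p 0.0756 to 0.207). The 12 genes of alveolar type I cells had a median of -0.40, with Hopx, Vegfa, Clic5, Akap5 and Cav1 at -0.70 to -0.44 and Pdpn at 0.57 (0.132 to 0.207). Among 16 club and mucous cell genes (median -0.09), the secretoglobin Scgb3a1 was at 12.67, 13.16 and 12.02 in PM lungs, against 11.26, 9.14 and 10.80 in PBS lungs (2.22 ± 0.52, adjusted p = 0.0508). Bpifb1 and Krt7 were at 1.62 and 0.84, and Aldh1a7, Cldn10 and Cckar at -1.61 to -1.01 (0.0545 to 0.134). For 18 ciliated cell genes the median was -0.40, 2 of the 18 differences were positive, 2 genes lay wholly below PBS (background 9.09%), and Ccdc39, Dynlrb2, Ccdc153, Rsph4a, Ak7 and Dnah5 were at -1.48 to -0.46 (0.0923 to 0.295). The 10 mesothelial genes had a median of -0.31, with Gpm6a, Rspo1, Muc16 and Lrrn4 at -1.14 to -0.59 and Msln and Wt1 at 1.04 and 0.60 (0.0636 to 0.256).

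Stress, cycle and metabolic lists also had no calls (background 2.39% in either direction). Immediate early genes had a median of 0.42 over 22 genes, and 7 lay wholly above PBS (background 17.4%): Egr1, Egr2, Egr3, Junb and Atf3 were at 0.78 to 1.64 and Klf4 at -1.37 (adjusted p 0.071 to 0.102). The 15 glycolysis genes had a median of 0.47, and Pfkl, Hk2, Tpi1, Aldoa, Pkm and Pgam1 were at 0.36 to 1.08 (0.0899 to 0.173). For 14 glucocorticoid-responsive genes the median was 0.36, with Fkbp5, Cebpb, Cdkn1a, Cebpd and Lpin1 at 0.58 to 1.32 and the receptor gene Nr3c1 at -0.60 (0.117 to 0.377). Cell cycle genes had a median of 0.13 over 22, with Mcm2, Mcm3, Mcm4 and Mcm6 of the replicative helicase at 0.52 to 0.92, Bub1 at -0.93 and Pcna at -0.40 (0.0957 to 0.325). Medians were 0.04 for 20 fatty acid oxidation genes, -0.04 for 23 heat shock and unfolded protein genes and -0.16 for 16 clock genes, and that of 25 oxidative phosphorylation and TCA cycle genes differed from all genes by less than 0.01. In these 4 lists the 6 smallest adjusted p ran from 0.0775 to 0.357. They belonged to Cpt1a, Cd36, Etfa, Cpt2, Fabp3 and Hadhb (-1.0 to 0.59), to Atf4, Hspd1, Ddit3, Trib3, Hyou1 and Bag3 (-0.41 to 0.67), to Ciart, Bhlhe40, Nfil3, Clock, Cry1 and Nr1d2 (-1.40 to 1.42) and to Ndufa4, Uqcrc1, Cox5a, Ogdh, Cs and Idh3a (-0.83 to 0.57).

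The largest differences of the comparison were not calls. Of the 50 largest rises by size, 13 were skeletal muscle genes, 6 squamous genes and 6 called, and for 25 of the 50 PM replicate 3 lay less than 1 above the PBS mean. Myh1, a fast myosin heavy chain, was at 12.17, 11.78 and 7.0 in PM lungs, against 2.79, 2.68 and 2.65 in PBS lungs, 7.61 ± 2.75 apart and at least 79.8-fold (adjusted p = 0.125). Tnnc2, the fast troponin C, was at 11.71, 11.20 and 4.89 in PM lungs, against 1.89, 1.99 and 2.14 in PBS lungs (7.26 ± 3.01, at least 38.6-fold, adjusted p = 0.161). Acta1, skeletal alpha-actin, was at 13.93, 13.49 and 8.17 in PM lungs, against 5.35, 5.96 and 6.93 in PBS lungs (5.78 ± 2.57, 0.183). PM replicate 3 thus carried more of these 3 transcripts than any PBS array, though far less than the other PM arrays. Mb, myoglobin, which heart also makes, overlapped between groups at 11.72, 11.03 and 9.23 in PM lungs, against 11.44, 10.19 and 10.46 in PBS lungs. No muscle gene passed: the 34 had differences from -1.17 (Myoz2) to 7.61, and the smallest adjusted p were 0.0813 to 0.171 (Mybpc2, Pygm, Tnni2 and Ryr1 beside Myh1 and Tnnc2). The muscle median relative to all genes was 2.44 in PM replicates 1 and 2 and -0.01 in PM replicate 3.

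Genes of other tissues differed between arrays in several patterns. The keratins Krt13 and Krt4 of squamous epithelium were at 10.89 and 11.73 in PM replicate 1 and at 12.34 and 13.03 in PM replicate 2, while PM replicate 3 and every PBS array lay between 2.49 and 3.04. Sprr3, Lor, Krtdap and Krt15 had the same pattern, and the 6 genes had adjusted p of 0.178 to 0.239. Adipocyte genes lay at a mean of 8.50, 8.22 and 7.40 in PM lungs, against 6.90, 7.33 and 6.15 in PBS lungs. Of 11 (background 1.96% higher), only Pparg rose (1.26 ± 0.26, adjusted p = 0.0372), a nuclear receptor that alveolar macrophages also express. Adipoq, the fat cell hormone, was at 9.47, 8.83 and 8.12 in PM lungs, against 6.99, 8.01 and 3.56 in PBS lungs (adjusted p = 0.169), and Car3, Cidec, Retn and Fabp4 had adjusted p of 0.129 to 0.251. Cardiomyocyte genes, which mouse pulmonary veins express, had a median of -0.11 over 17 genes and no call (background 2.39% in either direction). Within that list the natriuretic peptides stood high: Nppa was at 11.16, 11.13 and 11.58 in PM lungs, against 6.36, 4.93 and 7.64 in PBS lungs (4.98 ± 1.58, adjusted p = 0.0975), and Nppb was at 4.2, 5.53 and 5.78 in PM lungs, against 1.51, 1.49 and 1.49 in PBS lungs (0.0856), while Tnnt2 (0.73), Pln, Tnni3 and Ryr2 (-1.22 to -1.05) were not called. Red cell genes were high in 1 array of each group, with Alas2 at 11.87 in PM replicate 1 and 11.98 in PBS replicate 3 and at 8.15 to 9.41 elsewhere, and Slc4a1 had the same pattern. The 4 cartilage genes Comp, Chad, Sox9 and Cytl1 and the 2 lymphoid tissue genes Cxcl13 and Lef1 gave no call, although Cxcl13 was at 8.67 in PM replicate 1 and at most 5.87 in the other wild-type arrays.

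How far these 2 arrays shape the calls was measured in several ways. None of the 277 called genes is in the muscle or squamous list. Of 90 genes more than 2-fold higher in both PM replicates 1 and 2 than in PM replicate 3 and every PBS array, 19 are muscle and 9 squamous genes and 1 was called, Cst7 (singled out after its values were seen), an inhibitor of cathepsins in leukocytes. Genes that differ widely within a group have a large SE, 2.57 for Acta1, 2.75 for Myh1 and 3.01 for Tnnc2. The median SE over all genes tested was 0.24. Such genes could hardly pass the test, so these 2 counts do not measure how far the 2 arrays shape the calls. The median rise of the 227 called genes was 1.40 in PM replicates 1 and 2 and 1.27 in PM replicate 3 alone, and 220 of them were over 1.5-fold higher in PM replicate 3. For the 50 falls the median was -1.26, with -1.41 in PM replicates 1 and 2 and -1.03 in PM replicate 3, where 46 were over 1.5-fold lower. PM replicate 3 took part in making the calls, so these values describe them and do not test them. With the muscle level as a covariate the median rise was 1.38 and the median fall -1.15, and all 277 kept their direction, as did 10773 of the 11600 genes tested. The number called was then 16 (0.138%), all among the 277, while the median SE of the called rises was 0.30, against 0.26 without the covariate. The 14 rises that did were Olfm2, Nptx1, Cpxm1, Cpxm2, Nkg7, Lhfpl2, Cd247, Ptprcap, Eomes, Trim47, Tmem158, Angpt2, Fbln5 and Heph, and the 2 falls Uty and Tdgf1. Uty and Tdgf1 lay above 4 only in the wild-type PBS arrays, and Olfm2, Cpxm2 and Eomes only in PM arrays. Without PM replicates 1 and 2 the count was 15 (0.129%), 9 of them among the 277, with a single PM array left and its spread assumed to be that of the other groups. Listed in full, outside the naming rules, the 15 were Angpt2, Clk1, Cpxm2, Egr2, Eif2s3y, Galns, H2-Ea, Irgm2, Kdm5d, Nkg7, Phex, Qsox1, Sp5, Tmem158 and Uty.

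**Figure D3:**
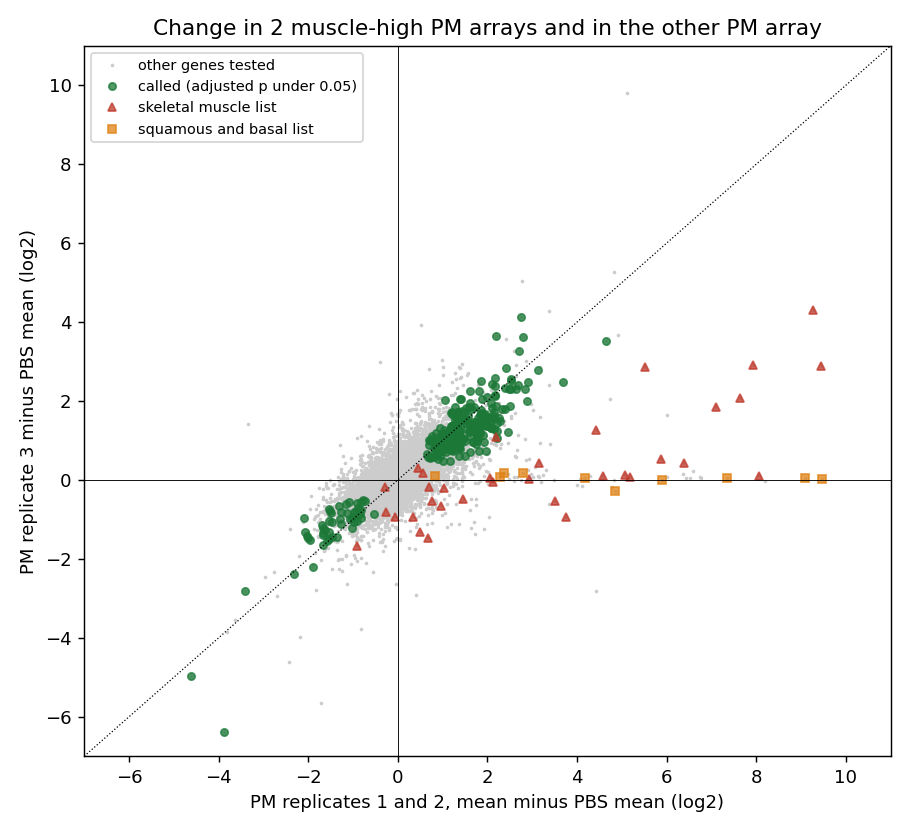
Log2 difference from the PBS mean in PM replicate 3 (y axis) against that of PM replicates 1 and 2 (x axis, their mean), 1 point per gene tested; green points passed an adjusted p of 0.05, red triangles are skeletal muscle genes, orange squares squamous and basal genes, and the dotted line marks equal differences. Called genes lie along the line (median rise 1.27 against 1.40), and squamous genes lie near 0 in PM replicate 3 while lying well above 0 in the other PM arrays.

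**Figure D4:**
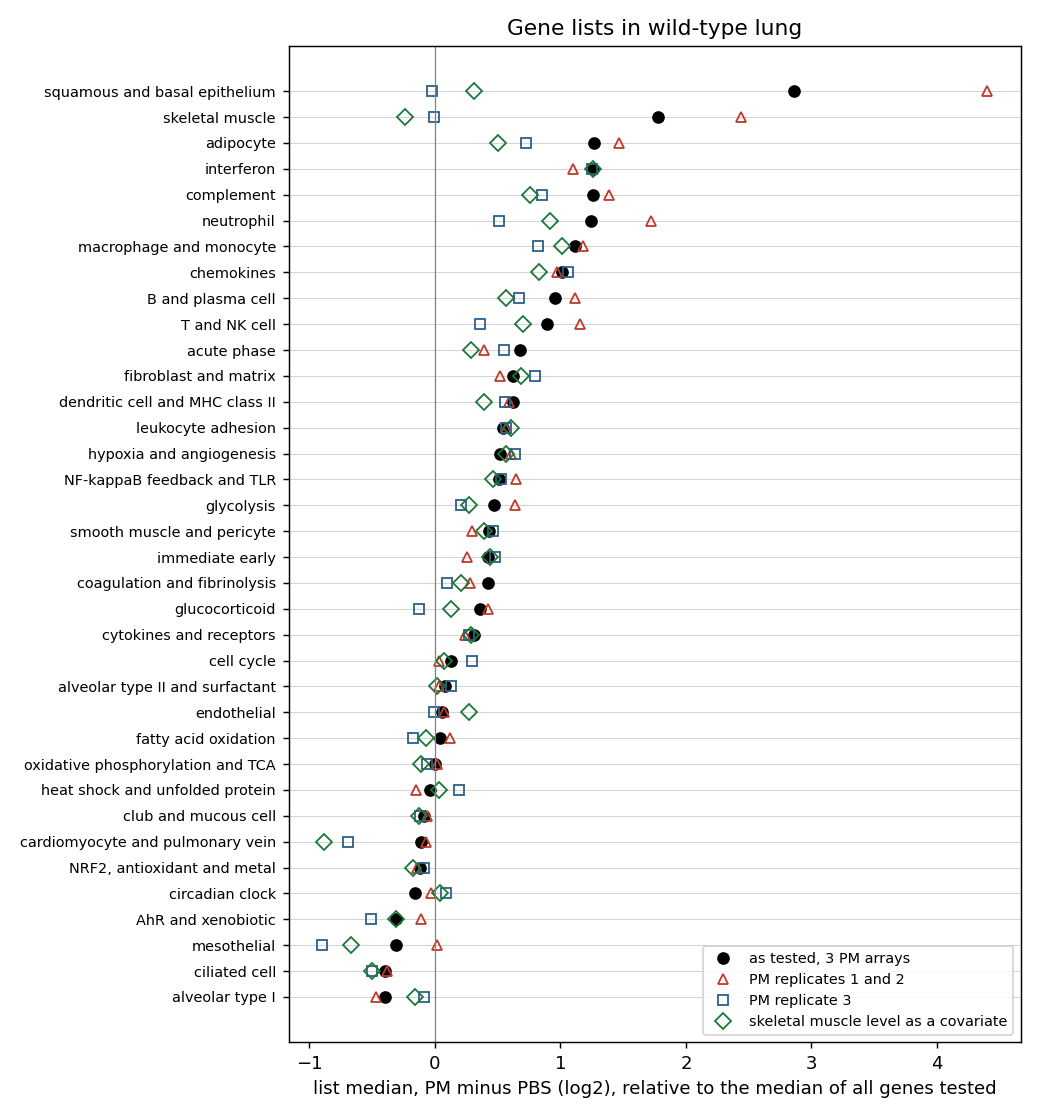
Median PM minus PBS difference (log2) of each gene list with at least 10 tested genes, relative to the median of all genes tested: over 3 PM arrays (black), PM replicates 1 and 2 (red triangles), PM replicate 3 (blue squares) and with the skeletal muscle level as a covariate (green diamonds). Squamous, skeletal muscle and adipocyte lists spread widely between settings, whereas the interferon median stays between 1.10 and 1.26.

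Sex-linked genes gave the strongest call. Uty, a Y-linked histone demethylase family member, was at 2.54, 3.39 and 2.61 in PM lungs, against 8.27, 7.44 and 7.01 in PBS lungs, at least 11.9-fold lower (adjusted p = 6.9e-05). Of the 12 lung arrays, only the 3 wild-type PBS arrays lay above 4 for Uty, so it passed the filter through that group alone. Eif2s3y passed at -4.71 ± 1.06 (adjusted p = 0.0474), and Kdm5d, at 2.35, 6.81 and 2.39 in PM lungs, against 6.99, 6.90 and 7.14 in PBS lungs, did not (0.0757). PM replicate 2 therefore carried Eif2s3y and Kdm5d near the PBS level but Uty near the level of the other PM arrays. Xist differed by 6.68 ± 2.73 (adjusted p = 0.157). Among the called genes, 5 of the 227 rises and 6 of the 50 falls are on the X chromosome and 2 falls on the Y. Of all 11600 genes tested, 349 are on the X and 3 on the Y. With the Xist level as a covariate 707 genes passed (6.09%), 179 of the 227 rises and 43 of the 50 falls among them. With the level of Eif2s3y as a covariate, an alternative added after the data were seen, 1877 genes passed (16.2%), 201 of the 277 among them. Both covariates are levels that differ between the exposure groups, so these fits do not separate sex from exposure.

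The same exposure in dnCREB lungs gave a second set of values in which tissue signal ran the other way. Skeletal muscle genes had mean levels of 4.74, 4.61 and 8.78 in PM dnCREB lungs, against 9.07, 4.95 and 8.06 in PBS dnCREB lungs, and the list median was -1.22 relative to all genes. Only Cpxm2 passed there (1.81 ± 0.21, adjusted p = 0.0416; 0.00862% of genes). Of the 227 wild-type rises, 219 had a positive difference in dnCREB lungs, with a median of 0.65, where 5142 of 6851 genes with a positive difference in wild type did so. Of the 50 falls, 37 were negative there, with a median of -0.22, where 2798 of 4749 genes were. Interferon genes had mean levels of 8.04, 8.92 and 8.26 in PM dnCREB lungs, against 7.69, 7.51 and 7.76 in PBS dnCREB lungs, so the groups did not overlap, and 21 of 22 differences were positive. Macrophage genes were at 8.63, 8.72 and 9.07 in PM dnCREB lungs, against 8.09, 8.25 and 8.13 in PBS dnCREB lungs. The T and NK cell median, by contrast, was -0.19, with 8 of 17 differences positive, and Cd247 and Ighg3 had differences of -0.03 and 0.04 in dnCREB lungs. The mean level of T and NK cell genes was 6.69, 6.33 and 6.39 in PBS dnCREB lungs, above the 5.78, 5.54 and 5.69 of wild-type PBS lungs. Cd247 was at 6.97, 6.52 and 6.64 in PBS dnCREB lungs, against 5.31, 4.88 and 5.45 in wild-type PBS lungs. Ptprcap was at 7.29, 7.30 and 7.17, against 5.83, 5.81 and 6.28. Ighg3 was at 8.30, 4.92 and 5.82 in PBS dnCREB lungs, so replicate 1 came near wild-type PM replicates 1 and 3 (8.63 and 8.58). Igkv9-120 was at 6.36, 4.16 and 6.43 in PBS dnCREB lungs, against 6.21, 6.74 and 6.50 in wild-type PM lungs. In the test of the difference between genotypes, 1 gene passed (0.00862%): Uty, at -4.81 ± 0.42 (adjusted p = 0.00218), whose dnCREB arrays all lay at 2.53 to 2.63. Those values are below the filter level of 4, so for Uty this test restates the wild-type difference of -4.73. For Cd247 that test gave 1.75 ± 0.30 (adjusted p = 0.482) and for Ighg3 4.23 ± 1.14 (0.831), so no difference between genotypes was shown for either. The Y-linked genes were at background in all 6 dnCREB arrays, and Xist was at 11.72, 12.34 and 12.52 in PM dnCREB lungs, against 2.95, 12.70 and 3.02 in PBS dnCREB lungs, so Xist was high in all 3 PM and in 1 of 3 PBS dnCREB arrays.

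**Figure D5:**
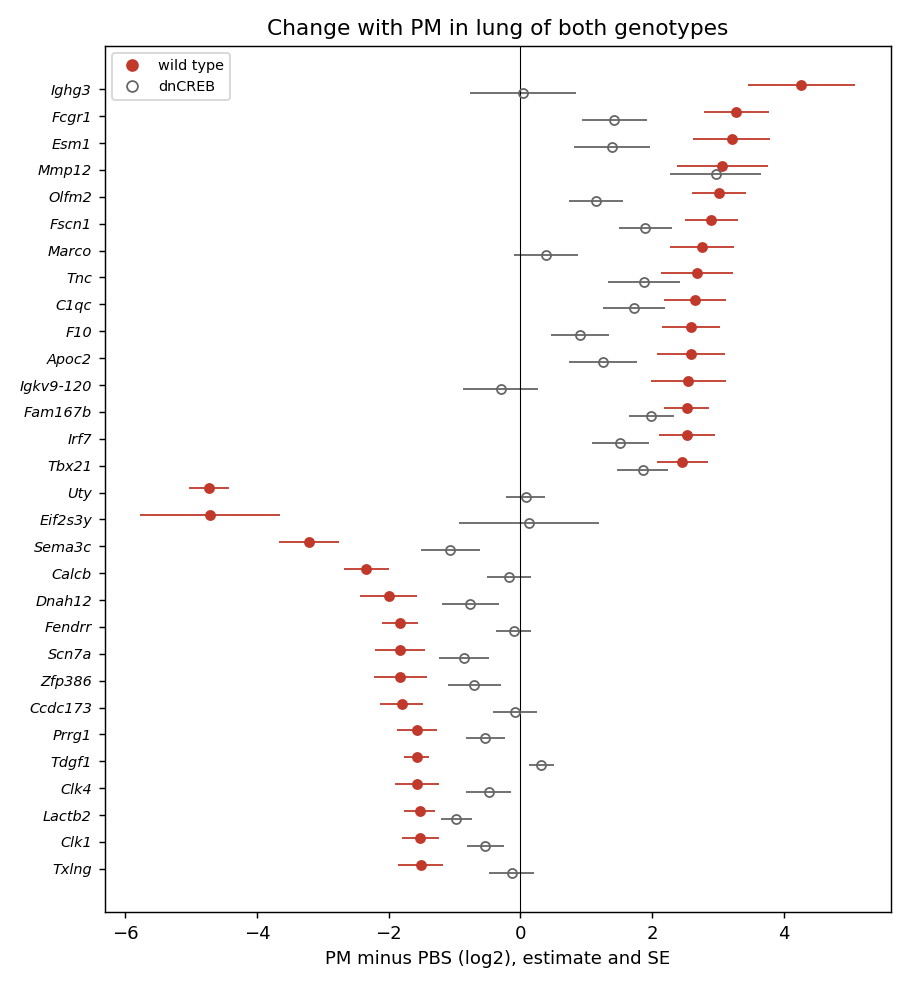
PM minus PBS difference (log2) of the 30 named genes with the largest rises and falls in wild-type lung (filled, above) and dnCREB lung (open, below); points are estimates and bars are 1 SE (n = 3 arrays a group). Mmp12 had about the same difference in both (3.07 in wild type and 2.97 in dnCREB), Ighg3, Igkv9-120 and Uty were at 0.04, -0.30 and 0.08 in dnCREB, and the other rises were positive in both.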

How the data were processed

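The authors deposited log2 expression values of 45037 probe sets from Affymetrix arrays of total RNA; per the submitters' processing notes they were made with GCRMA, and the values were used as deposited, with array medians of 4.09 to 4.19 in lung. GCRMA corrects for background, normalizes and summarises probes together, so low values have little meaning and probe-level signal was not used here. Of the probe sets, 34945 had 1 gene symbol, 932 several and 9160 none; 34741 matched RefSeq by Entrez ID. The probe set with the highest mean over 24 arrays stood for each gene, and probe sets with several symbols were left out.

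Differences came from limma 3.58.1 in R 4.3.3, with 4 lung groups (3 arrays each), moderated tests and Benjamini-Hochberg adjustment over 11600 genes. The test was also run on simulated data, where 46% of log2 shifts of 1 and 88% of shifts of 2 were found, with 7 false calls. Those data had independent noise of equal spread in every array, so they do not cover the muscle, squamous and sex-linked differences between arrays. The number of arrays limits the precision. The gene lists were chosen with earlier results of these data known. Named genes were the 15 largest rises and falls among called genes whose groups did not overlap (unnamed loci skipped), the 10 largest of each that were also called with the muscle covariate, and in each list the 6 smallest p and any called. Promoter sequences came from RefSeq (GRCm38.p6). Alternatives changed the filter, scaling, probe sets, arrays, covariates, weights and replicate block. Covariates were the mean level of the skeletal muscle list, the Xist level and, added after the data were seen, the Eif2s3y level. Figures were drawn with matplotlib 3.10.9.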

Additional observations from a re-analysis of the deposited data

Results flagged for a closer look

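Uty was singled out because its PM minus PBS difference differed between genotypes by the test of that difference: -4.81 ± 0.42 on the log2 scale (wild type minus dnCREB, SE, n = 3 arrays a group; limma adjusted p = 0.00218). It was at 2.54, 3.39 and 2.61 in wild-type PM lungs, against 8.27, 7.44 and 7.01 in wild-type PBS lungs, and at 2.53 to 2.63 in all 6 dnCREB lungs. Uty thus lay above the filter level of 4 only in the wild-type PBS lungs and passed the filter through that group alone. With the dnCREB groups below that level, the difference between genotypes restates the wild-type difference of -4.73. Labels give every animal as male.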

How the results depend on the processing

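The number of genes called in wild-type lung was 277. Across the settings that kept all 6 wild-type arrays it was 85 with no filter, 288 with a minimum of 6, 511 over all probe sets, 192 after quantile normalization, 301 after centring, 24 with only the 6 wild-type arrays, 738 with array weights, 310 with a trended robust prior and 277 with a 1.5-fold minimum. It was 16 with the skeletal muscle covariate, 707 with the Xist covariate and 1877 with the Eif2s3y covariate, which was added after the data were seen. Leaving out 1 array gave 38 (without PBS replicate 2) to 625 (without PM replicate 1), with 50 without PM replicate 2, 152 without PBS replicate 1, 194 without PM replicate 3 and 340 without PBS replicate 3. Leaving out several gave 15 (PM replicates 1 and 2), 4 (the 5 lung arrays high in muscle genes) and 43 (PBS replicate 1 with PM replicate 2), where fewer samples remained. Otherwise the cause of these shifts was not tested.

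The test of the difference between genotypes called 1 gene, and 3 over all probe sets, 2 with array weights, 4 without PM replicates 1 and 2, 0 without the 5 muscle-high arrays (by limma, with 169 genes at an unadjusted p under 0.05), 4 without PBS replicate 1 and PM replicate 2, 159 with the Eif2s3y covariate and 1 to 3 when 1 array was left out.

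Replicate numbers did not pair the samples: deviations of PM and PBS arrays with the same number correlated at 0.09, 0.07 and -0.08. With the replicate block 186 genes were called, 166 of them among the 277.

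Among named genes, Mb, at -0.03, turned to 0.05 with array weights, 0.86 with the Xist covariate, 0.51 with the Eif2s3y covariate, 0.15 without PBS replicate 1 and PM replicate 2 and 0.34 without PBS replicate 1; leaving out 1 array gave -0.56 (without PM replicate 1) to 0.68 (without PM replicate 3). With the Eif2s3y covariate Xist turned to -1.63 and Kdm5d to 0.76. No other of the 45 genes checked changed sign in the settings run. Genes named only as members of the gene lists were not part of this check.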
